A study of Mus musculus with 6 samples.

Results

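The 38 genes described here encode proteins of the tight junctions, adherens junctions and desmosomes that join intestinal epithelial cells. They were listed by name and not by a threshold on their values, though earlier results of these data were known when the list was made. Each is represented by its probe set with the highest mean over the 6 arrays, out of 18193 genes with a probe set of a single gene symbol. All 38 had such a probe set, with Mllt4 found under its newer symbol Afdn. The values are log2 expression levels, made by the authors. A gene was tested where it lay above 5 (log2) on at least 3 arrays, which held for 36 of the 38. Cldn1 and Ppl were left out by this level.

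Tight junctions seal the space between neighbouring epithelial cells, and their claudins decide which ions and water may pass. Adherens junctions couple cells through cadherins and catenins to the actin belt, and desmosomes couple them to keratin filaments. GGTase-I, a protein geranylgeranyl transferase, attaches a lipid to small GTPases such as Rac, Cdc42 and Rap proteins, which are known to organise actin at these contacts. The arrays report RNA, and neither the amount of junction protein nor its place in the cell.

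The study compared intestinal epithelial cells of 3 GGTase-I deficient mice with those of 3 control mice, 1 array per mouse, on a mixed 129/SV and C57BL/6 background. The deficient mice carried floxed Pggt1b, the gene of the GGTase-I beta subunit, together with the VillincreERT2 transgene, whose Villin promoter drives a tamoxifen-activated recombinase in epithelium. The control mice carried floxed Pggt1b and no VillincreERT2. All 6 mice received 1 mg of tamoxifen on each of 3 days, and cells were collected on day 6 from the first dose. Only the deficient mice carried the recombinase, so an effect of the recombinase and one of losing Pggt1b cannot be told apart. The sources used here give neither the age nor the sex of the mice, nor the segment of intestine.

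Pggt1b read 9.75, 8.88 and 8.83 in deficient replicates 1, 2 and 3, against 9.30, 9.55 and 9.33 in the controls. The groups overlapped (log2 change -0.24 ± 0.27 (SE), limma adjusted p = 0.678). Where its probe set lies relative to the deleted part is not given, so it does not check the labels. All 10 intestinal epithelium markers reached the level for testing and 0 passed the threshold, with a summed level (log2 of summed linear values) of 17.2 to 17.4 in deficient arrays and 17.0 to 17.2 in control arrays. The 7 endothelial markers lay at or below 5 on every array. T cell markers were lower in the deficient arrays, with summed levels of 10.5 to 12.5 against 14.4 to 14.7 in controls and 10 of 12 tested markers past the threshold (Cd2 lay at or below 5 on every array). Myeloid markers had summed levels of 10.7 to 11.6 in deficient and 11.8 to 12.8 in control arrays, with 4 of 8 tested markers lower past the threshold and Itgam and Cd68 at or below 5 throughout. Stromal and muscle markers had summed levels of 10.2 to 10.9 in deficient and 11 to 12.2 in control arrays, with 0 of 5 tested markers past the threshold and Col1a1, Myh11 and Des at or below 5. B and plasma cell markers had summed levels of 7.82 to 9.42 in deficient and 9.70 to 10.85 in control arrays, where 1 marker was tested and did not pass. Their part in the results below was not tested. Control replicate 2 stood apart in RNA quality. Its 3' minus 5' difference of the Gapdh control probe sets was 4.11 (log2), while this gap was 1.24, -0.29 and 0.86 in the deficient arrays and 1.62 and 1.03 in the other controls. The 9 hybridization control probe sets also split the arrays: they averaged 11.98 to 12.14 in deficient replicates 1 and 3 and control replicate 2, and 11.54 to 11.58 in the other 3.

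Junction gene RNA was not detectably changed with 3 arrays per group. With limma and adjustment over all 8893 genes tested, 0 of the 36 tested junction genes passed the threshold of 0.05, against a background of 2.09% of genes called (1.98% lower and 0.112% higher in deficient arrays). At an unadjusted p under 0.05 there were 4 junction genes, 3 higher (Cldn2, Tjp1 and Pkp2, against 5.60% of all genes tested) and 1 lower (Pard6b, against 11.3%). That is 11.1% of those tested, where 16.9% of all genes tested had such a p. The groups did not overlap for 5 junction genes (13.9%), where this held for 25.7% of all genes tested. Cldn2, Epcam, Dsp and Pkp2 were higher on every deficient array, and Patj was lower. The background of such non-overlap was 9.00% of genes for higher and 16.7% for lower deficient arrays.

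On the brightest probe set of each gene, the precision of the fit was enough to bound most of these changes. For 26 of the 36 junction genes (72.2%), the 95% interval of the change lay within 1 log2 unit of 0, that is within a 2-fold change. The same held for 64.6% of all genes tested. This bound does not cover the dimmer probe sets of these genes. Some of those had 95% intervals past it, as 0.30 to 2.30 for Ctnnb1, 0.61 to 2.37 for Crb3 and 0.56 to 1.86 for Dsc2. The median log2 change over the junction genes was 0.17, beside -0.04 over all genes tested, with 23 means higher and 13 lower in the deficient arrays. This median rested on deficient replicate 1 and control replicate 2: it was 0.012 without the first and 0.039 without the second, and 0.05 with array weights. Deficient replicate 1 was the highest of the 6 arrays for 21 of the 36 junction genes (58.3%), as it was for 22.1% of all genes tested. Control replicate 2 was the lowest for 15 (41.7%), as it was for 25.7% of all genes. Among arrays with the higher hybridization controls, the 2 deficient arrays exceeded the 1 control by a junction median of 0.23. Among the arrays with the lower ones, the 1 deficient array exceeded the 2 controls by 0.04. The medians over all genes tested were -0.004 and -0.06 in these comparisons. The junction genes higher in deficient arrays numbered 24 and 20 of the 36.

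**Figure D1:**
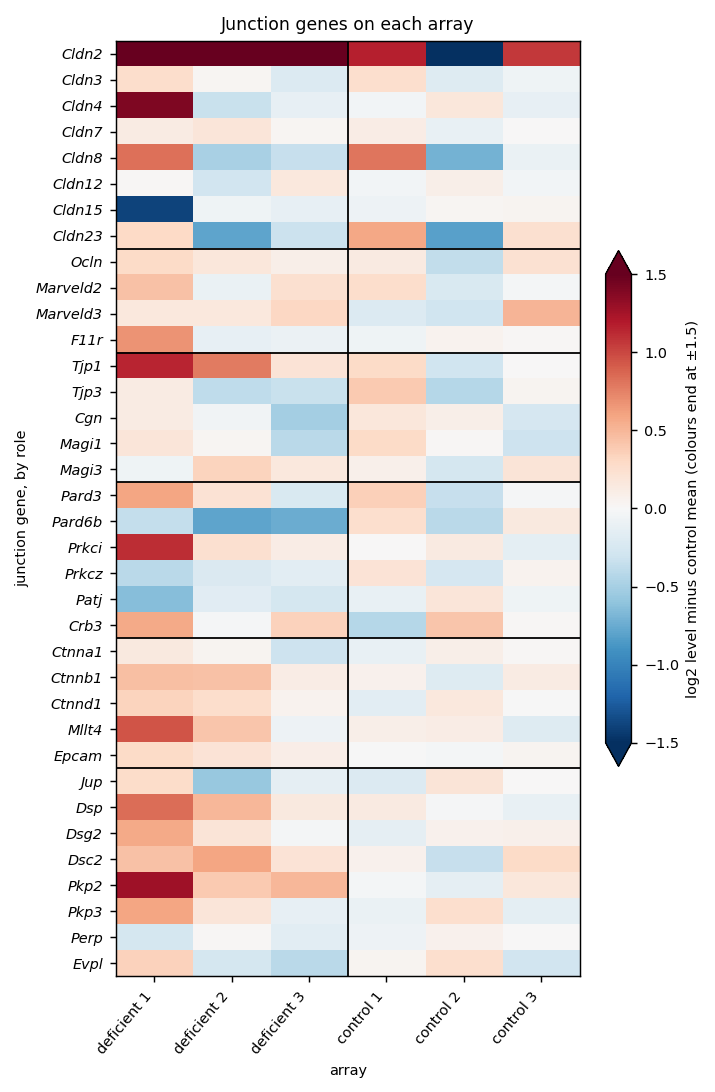
Level of each tested junction gene on each array, as the log2 level minus the mean of the controls (colour), with the genes grouped by role from claudins at the top to desmosomal genes at the bottom. Deficient replicate 1 is the highest array for 21 of 36 genes, and Cldn2 is far lower in control replicate 2 than on any other array.

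Cldn2 had the largest fitted change of the junction genes. It encodes a claudin that forms a pore for cations and water and is typical of crypt cells. Its levels were 10.53, 10.82 and 9.86 in deficient replicates 1, 2 and 3, against 9.36, 5.98 and 9.26 in control replicates 1, 2 and 3. All deficient arrays lay above all controls, but control replicate 2 alone was more than 3 log2 units below the other controls. The log2 change was 2.20 ± 0.88 (SE), with a 95% interval of 0.11 to 4.30 and a limma adjusted p of 0.279. Without control replicate 2 it was 1.09, and with the RNA 3' to 5' gap as a covariate it was 0.69 (limma adjusted p = 0.609). Within the arrays of higher and of lower hybridization controls it was 4.22 and 1.51. Over all alternative fits the change ran from 0.69 to 2.86 and the limma adjusted p from 0.0808 to 0.609. Crypt and cycling markers, none of which passed the threshold, matched Cldn2 mainly in control replicate 2. Their summed level was 12.55, 13.96 and 13.65 in the deficient arrays and 13.34, 11.01 and 12.59 in control replicates 1, 2 and 3. The stem cell markers Lgr5 and Ascl2 of that list lay at or below 5 on every array. The summed level overlapped between the groups, with deficient replicate 1 below control replicates 1 and 3. Of its genes, Olfm4 read 11.48 in deficient replicate 1, against 12.75 and 11.91 in those controls. Mki67 read 9.49 in deficient replicate 1, against 9.40 and 8.21, and Top2a, Pcna and Mcm2 lay between those controls. Control replicate 2 was also the lowest array for the ileum list, at 13.50, against 15.3 to 15.8 in deficient arrays and 15.76 and 16.03 in the other controls. It was the lowest for the Paneth cell list, at 12.80, against 14.2 to 14.8 in deficient arrays and 14.98 and 14.29 in the other controls. These sums weigh the highest genes most, here Fabp6 and Lyz1, both lowest in control replicate 2, as were Slc10a2, Slc51b and Mmp7. Of the ileum list, Slc51a was instead lowest in deficient replicate 1, at 11.11 against 11.84 in control replicate 2. Of the Paneth cell list, Ang4 read 10.25 in control replicate 2, against 9.30 and 8.45 in the other controls. Pla2g2a read 5.46 to 5.47 in all controls. The array lowest for Cldn2 was thus the lowest for the summed level of these 3 lists and the one with the widest 3' to 5' gap. It was also the lowest for the intestinal epithelium list, at 17.04 against 17.17 to 17.44. Other lists went the other way, and it was the highest array for the enterocyte list, at 18.33 against 17.92 to 18.14. The same held for the goblet cell list (17.35 against 16.86 to 17.15) and the proximal small intestine list (17.19 against 16.06 to 17.01). The part of each of these in the Cldn2 difference was not tested. In whole preparations, fewer cells of a type and less RNA per cell cannot be told apart.

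The promoter windows of the junction genes with an unadjusted p under 0.05 are shown because these 4 have the smallest p. They come from the RefSeq annotation of GRCm38.p6, which had a window for Cldn2, Tjp1 and Pard6b. Each window runs from 250 bases before to 50 bases after the annotated start, 5′ to 3′ on the gene's strand. Capitals mark matches on either strand to the E-box CAGGTG, the GC box CCGCCC or the TATA motif TATAAA.
Cldn2, chrX:139800558-139800857, plus strand: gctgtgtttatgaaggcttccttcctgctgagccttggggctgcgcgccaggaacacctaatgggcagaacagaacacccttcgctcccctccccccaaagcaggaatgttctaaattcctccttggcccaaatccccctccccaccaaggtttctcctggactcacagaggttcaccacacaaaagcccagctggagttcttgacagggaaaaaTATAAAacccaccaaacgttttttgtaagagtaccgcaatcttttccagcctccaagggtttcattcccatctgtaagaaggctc
Tjp1, chr7:65371195-65371494, minus strand: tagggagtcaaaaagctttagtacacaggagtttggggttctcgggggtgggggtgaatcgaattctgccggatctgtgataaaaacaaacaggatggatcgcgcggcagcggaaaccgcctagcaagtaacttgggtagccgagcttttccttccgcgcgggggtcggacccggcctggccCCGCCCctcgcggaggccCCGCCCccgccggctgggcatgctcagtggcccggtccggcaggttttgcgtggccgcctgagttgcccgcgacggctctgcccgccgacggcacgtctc
Pard6b, chr2:168080754-168081053, plus strand: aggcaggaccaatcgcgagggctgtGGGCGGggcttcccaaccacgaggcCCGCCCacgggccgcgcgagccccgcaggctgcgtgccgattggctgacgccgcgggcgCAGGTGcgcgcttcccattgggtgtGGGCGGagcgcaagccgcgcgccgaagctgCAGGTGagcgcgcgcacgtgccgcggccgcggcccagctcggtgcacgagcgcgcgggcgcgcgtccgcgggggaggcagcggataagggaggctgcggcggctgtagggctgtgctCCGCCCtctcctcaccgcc

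The 3 windows differed in base composition, with a GC share of 51.3% for Cldn2, 65.3% for Tjp1 and 77.0% for Pard6b. Cldn2 held 1 TATA match, Tjp1 held 2 GC box matches, and Pard6b held 4 GC box and 2 E-box matches. Windows were on hand for 27 of the 38 junction genes. At least 1 window held the E-box for 15 of these 27 genes (55.6%), beside 21.6% of the 7293 tested genes with a window and 22.6% of all 27025 genes with one. The GC box was found for 24 of the 27 (88.9%), beside 69.9% of tested genes and 38.2% of all genes. The TATA motif was found for 5 (18.5%), beside 9.15% and 15.7%. The sets differed in windows per gene, with 42 windows for the 27 junction genes, 9377 for the 7293 tested genes and 32851 for all, and a share of genes with at least 1 match rises with that number. The median GC share was 60.7% in the windows of junction genes and equally in those of tested genes, against 52.7% in all windows. A match of letters is a description and not evidence of binding.

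Of the other claudins, Cldn15 and Cldn4 differed mainly on deficient replicate 1. Cldn15, a claudin that lets cations pass in the small intestine, read 10.06 there, with 11.39 and 11.33 in deficient replicates 2 and 3 and 11.37, 11.48 and 11.49 in the controls. Its log2 change of -0.52 (limma adjusted p = 0.479) became -0.09 without that array. Cldn4, which tightens the barrier, read 12.99 on the same array, against 11.25 and 11.47 in the other deficient arrays and 11.55, 11.76 and 11.46 in the controls. Its change of 0.31 (limma adjusted p = 0.735) turned to -0.23 without deficient replicate 1. Summed levels of segment markers moved on that array too. The summed level of the proximal list was lowest there, at 16.1, against 16.8 in both other deficient arrays and 16.8 to 17.2 in controls. The colon list was highest there, at 15.3, against 14.2 and 14.7 in the other deficient arrays and 14.5 to 15.0 in controls, with Hoxd13 of that list at or below 5 throughout. Of the proximal list, Lct, Fabp1, Slc2a2 and Cyp3a11 were lowest on that array, while Gata4 and Slc40a1 were not. Slc40a1 read 12.21 there, against 10.10 and 11.39 in the other deficient arrays and 10.84, 12.38 and 10.90 in controls. Of the colon list, Hoxb13, Aqp8 and Slc26a3 were highest there. Car1 was instead highest in control replicate 3, at 14.57 against 14.46 in deficient replicate 1. None of either list passed the threshold. Their part in the Cldn15 and Cldn4 values was not tested.

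Cldn8 and Cldn23 varied widely within both groups. Cldn8, a sealing claudin, was at 8.85, 7.54 and 7.68 in deficient arrays and at 8.83, 7.31 and 7.93 in controls, so that the means were both 8.02. Cldn23 read 11.83, 10.73 and 11.20 in deficient arrays, against 12.11, 10.71 and 11.76 in controls, with a change of -0.27 (limma adjusted p = 0.763). For these genes the spread between mice exceeded the difference between groups. Cldn3 and Cldn7, claudins found along the whole intestine, and Cldn12 were steadier on their brightest probe sets. Cldn7 read 14.15, 14.20 and 14.05 in deficient arrays, against 14.13, 13.91 and 14.02 in controls. It averaged 14.13 ± 0.07 in deficient and 14.02 ± 0.11 in control arrays (SD, n = 3 each), and Cldn3 averaged 12.83 ± 0.23 in deficient and 12.81 ± 0.23 in control arrays. Cldn12 was at 10.51 ± 0.23 in deficient and 10.55 ± 0.08 in control arrays. The 95% intervals of these 3 changes lay between -0.45 and 0.50. The dimmest tested probe set of Cldn3 varied more, with an SD of 0.72 in controls and a 95% interval of -0.67 to 1.25. Cldn1 lay between 3.32 and 3.43 on all 6 arrays, below the level used for testing.

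The other membrane proteins of the tight junction differed little. Ocln, Marveld2 and Marveld3 encode occludin, tricellulin and a related protein with 4 membrane spans, and F11r encodes junctional adhesion molecule A. Their 4 log2 changes ran from 0.16 to 0.21, with limma adjusted p from 0.662 to 0.761, and all 4 intervals lay within a 2-fold change. Ocln read 11.06, 10.95 and 10.87 in deficient arrays, against 10.92, 10.41 and 11.01 in controls. Its low control was again replicate 2, and without it the change was -0.002. Marveld2 read 9.93, 9.39 and 9.73 in deficient arrays, against 9.75, 9.25 and 9.46 in controls, with overlapping groups. Marveld3 read 9.46, 9.45 and 9.60 in deficient arrays, against 9.09, 8.99 and 9.81 in controls, so that control replicate 3 was the highest array. Tricellulin, the product of Marveld2, sits where 3 cells meet. F11r stood at 11.52 in deficient replicate 1, against 10.73 and 10.77 in the other deficient arrays and 10.78, 10.90 and 10.87 in controls. Without that array its change was -0.10.

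Tjp1 had the highest change among the cytoplasmic plaque genes of the tight junction. It encodes ZO-1, the scaffold that binds claudins at one end and actin at the other. Its levels were 12.26, 11.89 and 11.33 in deficient arrays, against 11.40, 10.82 and 11.13 in controls. Deficient replicate 3 lay below control replicate 1, so the groups overlapped. The log2 change was 0.71 ± 0.28 (SE), a fold of 1.64, with a 95% interval of 0.05 to 1.37 and a limma adjusted p of 0.276. It ranged from 0.49 without deficient replicate 1 to 0.96 without deficient replicate 3. Within the arrays of higher and of lower hybridization controls it was 0.97 and 0.63. The other 4 plaque genes had overlapping groups, with limma adjusted p from 0.714 to 0.897. Tjp3, which encodes the further ZO scaffold ZO-3, read 10.43, 9.93 and 9.97 in deficient arrays, against 10.70, 9.88 and 10.35 in controls (log2 change -0.20). Cgn, the gene of the actin- and myosin-binding cingulin, read 9.69, 9.51 and 9.05 in deficient arrays, against 9.74, 9.65 and 9.31 in controls (change -0.15). Both had changes smaller than the spread within either group. The scaffold gene Magi3 read 10.02, 10.41 and 10.23 in deficient arrays, against 10.15, 9.81 and 10.27 in controls (change 0.14, and 0.008 without control replicate 2). Its relative Magi1 was at -0.07.

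The polarity genes went in both directions. Pard6b, the PAR6 subunit that binds Cdc42 in its active form, read 10.09, 9.65 and 9.69 in deficient arrays and 10.69, 10.04 and 10.59 in controls. Control replicate 2 lay below deficient replicate 1, and the remaining controls above all deficient arrays. Its log2 change was -0.63 ± 0.23 (SE), with a 95% interval of -1.18 to -0.08 and a limma adjusted p of 0.250. The change was -0.83 without control replicate 2, and over all alternatives the adjusted p ran from 0.0643 to 0.489. Its second tested probe set changed by -0.60. The kinase partners of Pard6b differed from each other in sign. Prkci, the atypical protein kinase C iota, was at 11.39, 10.52 and 10.39 in deficient arrays and at 10.29, 10.41 and 10.14 in controls (change 0.49, limma adjusted p = 0.413, and 0.17 without deficient replicate 1). Its zeta relative Prkcz read 9.05, 9.24 and 9.30 in deficient arrays, against 9.66, 9.20 and 9.51 in controls, with overlapping groups (change -0.26, limma adjusted p = 0.491). Its second tested probe set changed by -0.76, and both Prkcz values thus had the sign of Pard6b. The scaffold gene Pard3 was at 0.19 (limma adjusted p = 0.737). Its other tested probe sets changed by -0.20 and 0.32, so no direction is given for this gene.

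In the Crumbs complex, which marks the apical membrane, the scaffold gene Patj read 8.68, 9.15 and 9.05 in deficient arrays, against 9.20, 9.50 and 9.25 in controls. Its groups did not overlap, and the log2 change was -0.36 (limma adjusted p = 0.381). The second tested probe set of Patj changed the other way, by 0.38, so no direction is given for this gene. Crb3, the membrane-spanning member, was at 0.30 with overlapping groups (limma adjusted p = 0.576).

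Among the adherens junction genes, 4 of 5 had higher means in the deficient arrays. Epcam encodes an adhesion protein of epithelial cells that stabilises claudins in the intestine. Its levels were 14.66, 14.58 and 14.47 in deficient arrays, against 14.37, 14.34 and 14.41 in controls. The groups did not overlap, but the log2 change was 0.19 with a 95% interval of -0.15 to 0.54 (limma adjusted p = 0.521). Mllt4, whose product afadin ties nectins to actin and binds Rap1, was at 11.14, 10.62 and 10.12 in deficient arrays and at 10.28, 10.31 and 10.01 in controls. Its change of 0.43 (limma adjusted p = 0.450) was 0.17 without deficient replicate 1. Beta-catenin and p120-catenin bind the tail of the cadherin. Ctnnb1, the gene of beta-catenin, read 14.15, 14.14 and 13.82 in deficient arrays, against 13.76, 13.51 and 13.83 in controls (change 0.33, limma adjusted p = 0.383). Deficient replicate 3 lay just below control replicate 3, so the groups overlapped. Ctnnd1, the gene of p120-catenin, read 10.05, 9.99 and 9.77 in deficient arrays, against 9.56, 9.88 and 9.71 in controls (change 0.22, limma adjusted p = 0.535). Ctnna1 encodes alpha-catenin, which connects the cadherin complex to actin. It averaged 14.28 ± 0.24 in deficient and 14.31 ± 0.10 in control arrays (SD, n = 3 each).

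On the brightest probe sets, Pkp2 and Dsp had the highest changes of the desmosomal genes. With the mean over all probe sets of a gene, tested or not, Pkp3 (0.95) and Dsc2 (0.81) lay above Pkp2 (0.60). Dsg2 (0.50) lay below these and above Dsp (0.34). The Dsp mean took in an untested probe set that read 2.69 to 2.76 over the arrays. Both tested Dsp probe sets changed by 0.49. The Pkp2 mean also took in an untested probe set. Pkp2 encodes plakophilin 2, a plaque protein that gathers desmoplakin. It read 12.08, 11.19 and 11.29 in deficient arrays, against 10.77, 10.67 and 10.97 in controls. The groups did not overlap, and deficient replicate 1 lay well above the other 5 arrays. The log2 change was 0.72 ± 0.26 (SE), a fold of 1.65, with a 95% interval of 0.09 to 1.34 and a limma adjusted p of 0.248. It was 0.44 without deficient replicate 1, and the other tested probe sets of Pkp2 gave 0.87 and 0.29. Dsp encodes desmoplakin, which anchors keratin filaments. It read 14.36, 14.02 and 13.67 in deficient arrays, against 13.65, 13.51 and 13.41 in controls. The groups did not overlap, but only just: deficient replicate 3 exceeded control replicate 1 by less than the spread of either group. The change was 0.49 (limma adjusted p = 0.305), and 0.51 and 0.49 within the arrays of higher and of lower hybridization controls.

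The desmosomal cadherins desmocollin 2 and desmoglein 2 form the contact between cells. Dsc2 read 11.53, 11.68 and 11.29 in deficient arrays, against 11.15, 10.74 and 11.37 in controls (change 0.41, limma adjusted p = 0.378). Dsg2 read 14.85, 14.49 and 14.26 in deficient arrays, against 14.16, 14.35 and 14.36 in controls (change 0.24, limma adjusted p = 0.547). Both had overlapping groups. The change of Dsg2 was 0.08 without deficient replicate 1. The plakophilin gene Pkp3 was at 0.22 (limma adjusted p = 0.653). Jup, the gene of plakoglobin, read 9.69, 8.85 and 9.28 in deficient arrays, against 9.22, 9.60 and 9.43 in controls. Its deficient arrays thus lay on both sides of the controls (change -0.14, limma adjusted p = 0.786). Perp, a desmosomal membrane protein and p53 target, was at -0.14, and Evpl, a plakin best known from cornified epithelia, at -0.11. Ppl, the related periplakin gene, read 3.85, 5.26 and 3.60 in deficient arrays and 3.32, 2.97 and 3.38 in controls. It lay above 5 on 1 array alone, so no fold is given.

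**Figure D2:**
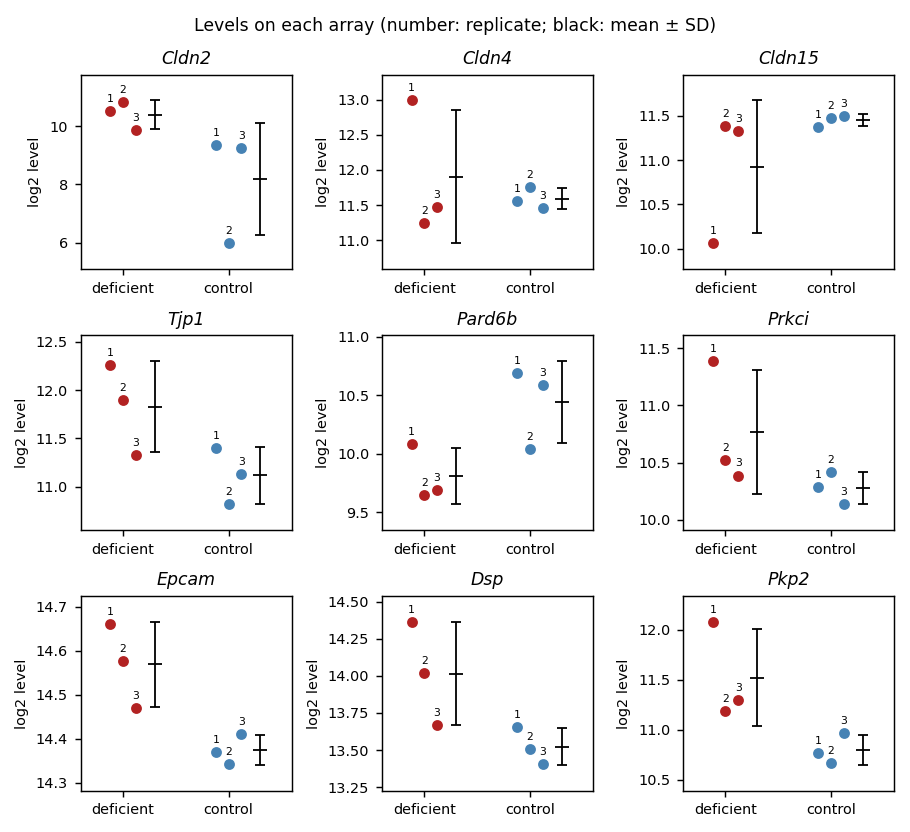
Log2 level on each array for 9 junction genes, with deficient arrays in red and controls in blue; numbers give the replicate and black bars the mean ± SD of 3 arrays. Deficient replicate 1 stands apart for Cldn4, Cldn15, Prkci and Pkp2, and control replicate 2 for Cldn2.

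**Figure D3:**
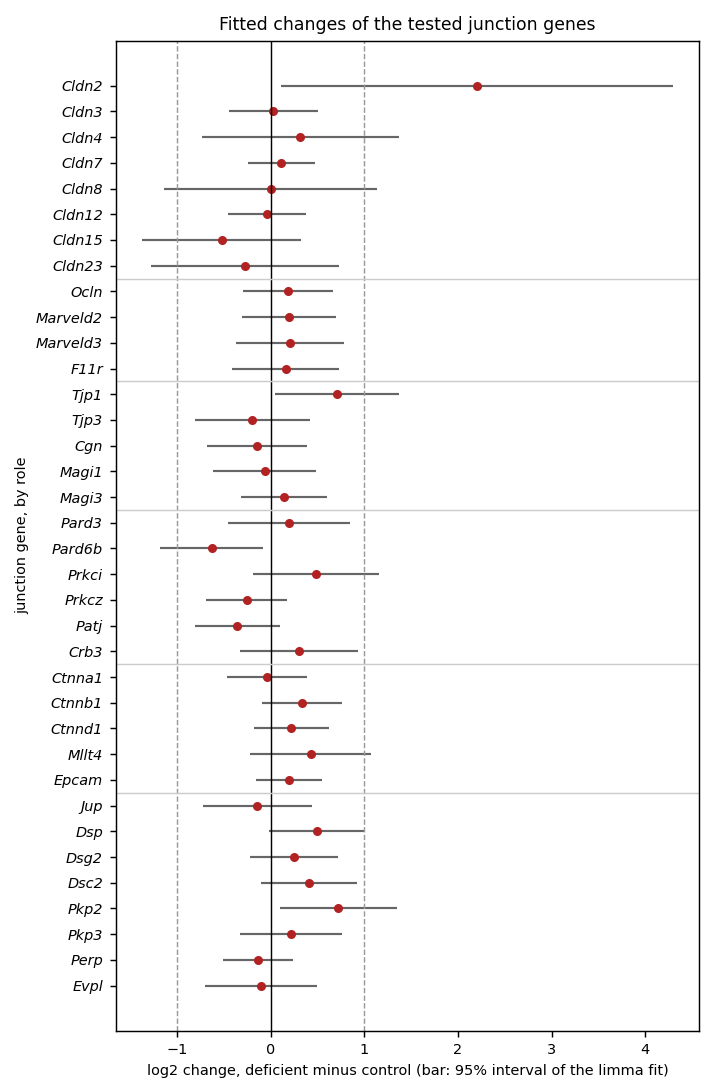
Fitted log2 change, deficient minus control, for the 36 tested junction genes (points) with 95% intervals of the limma fit (bars); dashed lines mark a 2-fold change. For 26 genes the interval lies between the dashed lines, and for Cldn2 it runs from 0.11 to 4.30.

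Probe sets of the same gene did not always give the same size of difference. The 38 genes had 90 probe sets, of which 67 were tested and 0 passed, where 1.47% of all 14478 probe sets tested passed when each was fitted by itself. At an unadjusted p under 0.05, 10 of the 67 were higher and 1 was lower, beside 6.80% and 9.72% of all probe sets. The groups did not overlap for 14 in the higher direction and 1 in the lower, beside 10.4% and 14.5% of all probe sets. In both counts the share was above that of all probe sets in the higher direction and below it in the lower. Probe sets of 1 gene are not independent, and Dsg2 and Pkp2 each gave more than 1 of the 10. Of the 20 junction genes with at least 2 tested probe sets, 14 (70.0%) had all of them on the same side of 0, as had 62.1% of 3533 genes overall. The probe sets of 1 gene spanned more than 0.5 log2 units in 9 of the 20 (45%), beside 30.6% overall.

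The 5 widest spreads, in Pkp3, Dsg2, Crb3, Ctnnb1 and Dsc2, all included a dimmer probe set with a change above 1. For Ctnnb1 the brightest probe set changed by 0.33, while its other tested probe sets changed by 1.02 and 1.30. On the dimmest, Ctnnb1 read 8.31, 8.59 and 7.97 in deficient arrays, against 7.37, 6.02 and 7.59 in controls. Control replicate 2 was far below the rest, and without it this change was 0.81. For Pkp3 the values were 0.22 on the brightest probe set and 1.68 on the other, with 6.78, 7.33 and 5.83 in deficient arrays and 5.77, 3.50 and 5.62 in controls on the dimmer one. Without control replicate 2 that change was 0.95. Dsc2 gave 0.41 and 1.21, the second with non-overlapping groups (9.31, 9.09 and 8.54 in deficient arrays, against 7.85, 7.38 and 8.08 in controls) and 1.01 without control replicate 2. Crb3 gave 0.30, 0.35 and 1.49, and Dsg2 ran from -0.18 to 1.25 over 6 probe sets. None of these passed the threshold (limma adjusted p from 0.121 for the dimmer Dsc2 probe set). The other probe sets exceeded the brightest by a median of 0.12 over these 20 genes, beside 0.07 over all 3533 genes. Their median was higher than the brightest in 13 of the 20 (65%), beside 59.0% overall. The excess over the 20 genes was 0.06 without control replicate 2, whose RNA 3' to 5' gap was the widest. The value over all 3533 genes was not computed without that array, so this 0.06 has no background beside it. The part of RNA quality in these differences was not tested beyond leaving out control replicate 2.

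**Figure D4:**
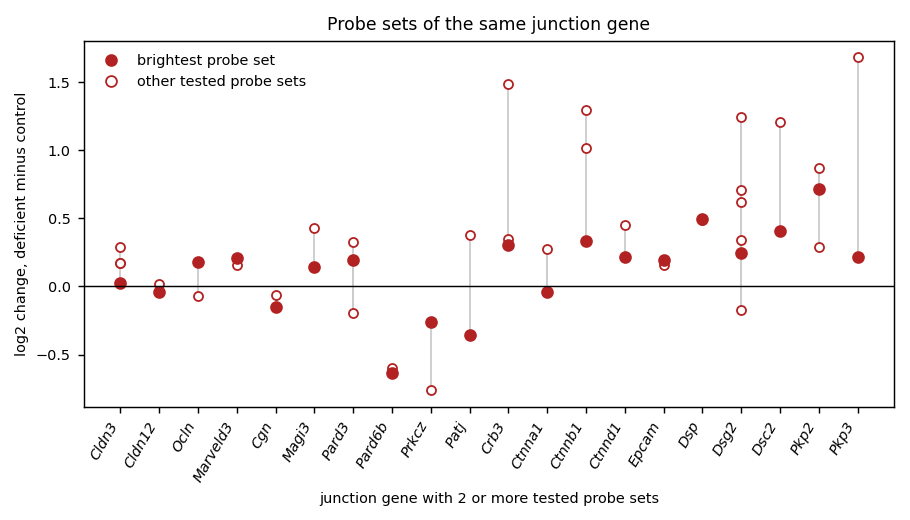
Log2 change, deficient minus control, of each tested probe set for the 20 junction genes with at least 2 of them; filled points are the brightest probe set of a gene and open points the others. Ctnnb1, Pkp3, Dsc2, Crb3 and Dsg2 have open points above 1, while their filled points lie between 0.22 and 0.41.

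**Figure D5:**
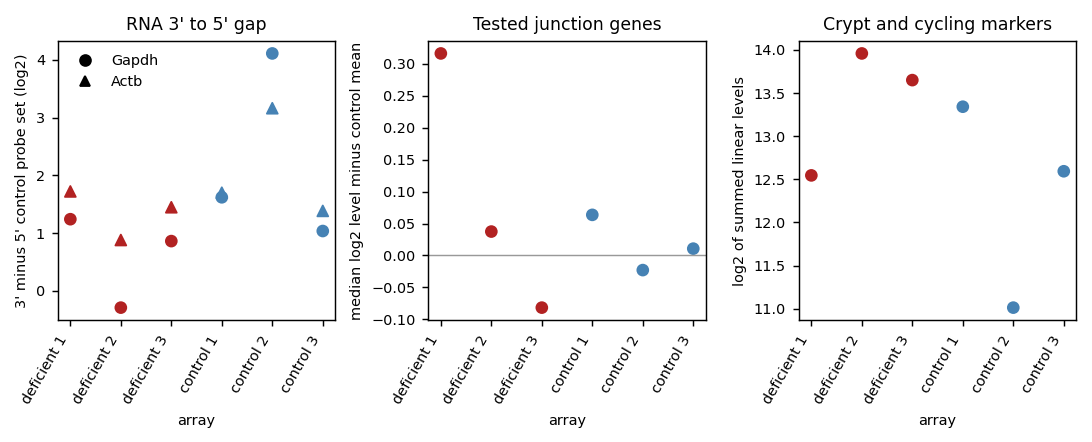
For each array, left, the 3' minus 5' difference of the Gapdh and Actb control probe sets (log2); middle, the median of the tested junction genes as log2 level minus control mean; right, the summed level of crypt and cycling markers (log2 of summed linear values). Deficient arrays are red and controls blue, and control replicate 2 has the widest gap and the lowest crypt marker level.

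Further genes of the junctions, 69 in all, gave a like picture. Of these 60 were on the array and 28 were tested. With limma 0 of 28 passed, beside the 2.09% background, and at an unadjusted p under 0.05 there were 2 higher and 2 lower (14.3%, beside 16.9% of all genes tested). Non-overlapping groups were found for 6 of the 28 (21.4%), beside 25.7%. The median log2 change was 0.08. Amotl2, an angiomotin family protein that binds at junctions and restrains YAP, came nearest. It read 5.90, 6.10 and 6.20 in deficient arrays, against 7.67, 6.76 and 7.25 in controls. The groups did not overlap and the change was -1.16 ± 0.25 (SE), with a limma adjusted p of 0.0886. The adjusted p was 0.0468 without control replicate 2 and 0.0268 with array weights, so this call depended on the setting. Igsf5, a junctional adhesion molecule also called JAM4, was at 0.73, and Tjap1, a tight junction associated protein, at -0.54, both with non-overlapping groups (limma adjusted p = 0.196 and 0.198). The polarity scaffold Dlg1 was at 0.44, again without overlap (limma adjusted p = 0.250).

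Of 5 small GTPases that act at junctions and are lipid-modified by GGTase-I, 0 passed, beside the 2.09% background. An unadjusted p under 0.05 was found for 1, higher in deficient arrays, beside 5.60% of all genes tested in that direction. Groups without overlap were found for 2 of the 5, both higher in deficient arrays, beside the background of 9.00%. Rhoa was the nearest. It read 12.88, 12.98 and 12.73 in deficient arrays, against 12.47, 12.43 and 12.14 in controls. These groups did not overlap, with a log2 change of 0.52 ± 0.17 (SE) and a limma adjusted p of 0.208. Rap1a read 12.27, 12.45 and 12.33 in deficient arrays, against 12.15, 12.12 and 12.16 in controls, also without overlap (change 0.21, limma adjusted p = 0.483). Rac1, Rap1b and Cdc42 lay between -0.02 and 0.16 with overlapping groups. Of 14 transcription factors known to act on junction genes, 13 were on the array, 7 were tested and 0 passed, beside the same 2.09%. Hnf4a, which controls many genes of the gut epithelium, was at 0.36 with non-overlapping groups (limma adjusted p = 0.327). Grhl2, an activator of junction genes, was at 0.28, Ovol1 at -0.18 and Klf4 at -0.14, all with overlapping groups. The repressors Snai1, Snai2, Twist1, Zeb1 and Zeb2 were among the 6 that did not reach the level for testing.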

How the data were processed

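RNA of 6 mice was measured on 6 Affymetrix arrays. The deposited log2 values are 1 per probe set and array; Partek 6.5 and GCRMA appear in the submitters' processing notes, without the step each served. That the deposited scale is log2 was judged from its range. Of 45101 probe sets, 64 were controls and stayed out of the tests; 34958 had 1 gene symbol, 932 several and 9211 none. Each gene took its probe set with the highest mean over the 6 arrays. Genes above 5 on at least 3 arrays were tested between groups by lmFit and eBayes of limma (version 3.58.1, R 4.3.3) without covariates, with Benjamini-Hochberg adjustment over 8893 genes. The script was checked on simulated data. Changes are deficient minus control; ± is the SE of the fit or, for means, the SD of 3 arrays. The number of arrays limits the precision. Summed marker levels are log2 of summed linear values.

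Members and lists were chosen with earlier results of these data known. Of the other junction genes, Cldn25 was matched by synonym to Cldnd1. Per-array values were given for the junction genes with the smallest p in each role (up to 4) and for further ones where single arrays stood apart, which was judged after their values were seen. Of other lists, up to 4 genes with the smallest p were named, with each GTPase and the untested repressors besides. Alternatives tried are in the closing section.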

Additional observations from a re-analysis of the deposited data

How the results depend on the processing

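Of the 36 tested junction genes, 0 passed in any of the 16 alternative settings chosen at the outset or of the 3 added after seeing the data (hybridization control split as a term, 3' to 5' gap as a covariate, each probe set by itself). The lowest adjusted p in the gene fits was 0.0643, for Pard6b with array weights. The sign differed from the reported one in 41 of 639 fits of a junction gene, over 16 genes; 20 genes kept their sign throughout. The junction median was 0.012 to 0.19 when 1 array was left out, 0.05 with array weights and 0.25 with median centring. Genes called over the whole table, 186 as reported, numbered 293 with array weights, 85 with no filter, 117 with the mean of probe sets, 93 with the gap covariate and 93 to 239 without 1 array. Of the other junction genes, 1 (Amotl2) was called with array weights, and 0 to 1 without 1 array; their median was -0.01 with array weights and -0.007 to 0.17 without 1 array. The causes were not tested. The labels of same-numbered mice share only a number, and whether these mice were paired is not given. Their deviations correlated at 0.05, -0.29 and 0.00, and those of mice with different numbers at -0.29 to 0.24. With so few arrays this cannot decide whether mice were paired. With the replicate block 141 genes and 0 junction genes were called, and the junction median was 0.17. No detection calls were used, so signal over background is not known.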
